A study of Drosophila melanogaster with 18 samples.

Results

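Cohesin and condensin are ring-shaped complexes that hold and fold chromosomes. Cohesin keeps sister chromatids together until they separate and forms loops in interphase, and condensin compacts chromosomes for division. Each ring is built from a pair of long SMC proteins, which hydrolyse ATP, closed by a kleisin, with further subunits bound to the kleisin. In the ovary both complexes serve the dividing germline and its meiosis as well as the dividing somatic cells of the follicle.

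The 10 genes described here were chosen by name from the gene table of 14237 genes, and all 10 were measured in all 18 libraries and passed the filter on low counts. They are 5 cohesin genes including the loader and 5 condensin genes. SMC1 and SMC3 encode the arms of the cohesin ring, vtd (verthandi) its kleisin Rad21, SA1 the subunit stromalin, and Nipped-B the loader that places cohesin on chromatin. SMC2 and glu (gluon, the fly SMC4) encode the arms of condensin, barr (barren) its kleisin, and Cap-D2 and Cap-G the other subunits of the condensin I form.

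The study asked how loss of the nuclear lamina protein emerin, encoded by Ote, or of its partner BAF changes gene expression in the ovary, and how much of the change depends on the checkpoint kinase Chk2, encoded by lok. RNA with poly(A) tails came from about 100 pairs of ovaries per library, dissected from newly eclosed Drosophila melanogaster females that lack late egg chambers. The wild-type references were Canton S (CS, 4 libraries) and yw (3 libraries), a strain with mutant alleles of y and w. The emerin mutants were emerin G/PI (2 libraries) and emerin G/PK (2 libraries). In these the allele G, a piggyBac insertion, stands over PI, a missense allele, or PK, a nonsense allele. The study's methods call all 3 alleles null, and all were in a yw background. The chk2, emerin double mutant (3 libraries) carried emerin G/PK with chk2 alleles P6, an insertion with a deletion at the second exon, and P30, a deletion of the 5′ end. The stocks it came from were in a yw background too. In baf GLKD (2 libraries) a nanos-gal4VP16 driver, which acts in the germline only, expressed a short hairpin RNA against baf. The nosgal4 group (2 libraries) carried the driver alone in a w mutant background. The hairpin line had mutant alleles of y, sc, v and sev, so these groups may differ in background as well as in the hairpin. By the labels, baf GLKD was raised at 25 °C while every other genotype was kept at room temperature, whereas the study's methods give the same warmth for all crosses. If the labels hold, temperature and knockdown cannot be told apart. The methods count 1 CS library fewer than the files hold, and all 4 were used.

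Library totals ran from 18138657 to 28372959 estimated counts, and 12762 genes were tested. Levels are in CPM, which scales each library's counts to one common total with TMM factors, unless the per-length unit TPM is named. In 7 libraries (CS replicates 1 and 2, yw replicates 1 and 2, and replicate 1 of emerin G/PI, of nosgal4 and of baf GLKD) the transcript tables held 7.42 to 18.9 times fewer counts than the gene table, so the counts below come from the gene table, and results are also given for the other 11 libraries. Ote was at 11.7 to 59.0 CPM in the emerin libraries against 64.8 to 85.3 in wild type, and it was at 21.6, 23.1 and 23.1 in chk2, emerin. lok was at 14.3 to 16.0 CPM in chk2, emerin against 194 to 247 in wild type. baf was at 66.4 and 72.5 CPM in baf GLKD against 86.0 and 110 in nosgal4, a difference that did not pass the test (adjusted p = 0.26, edgeR). Germline markers were present in every library, so the label of the tissue held, but the makeup of the tissue differed between genotypes. The summed level of 11 germline markers was 3930 to 5722 CPM in wild type, 825 to 2017 in emerin, 2342 and 2515 in baf GLKD, 5281 and 5497 in nosgal4 and 5278 to 5793 in chk2, emerin. None of these markers was at 0 in any library. In bulk tissue, fewer cells of a type and less RNA per cell cannot be told apart.

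Set beside one another on the per-length TPM scale, the levels of the 10 genes lay within a narrow band. In wild type the medians over 7 libraries were 27.6 TPM for SMC1, 27.6 for vtd, 27.1 for Nipped-B, 23.8 for glu and 21.9 for Cap-G. They were 18.7 TPM for SMC3, 16.4 for SMC2, 15.8 for barr, 14.5 for SA1 and 9.12 for Cap-D2. Each gene's range over the wild-type libraries overlapped that of its neighbour in this order, so the order of neighbours is not resolved.

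In emerin vtd stood first with a median of 33.1 TPM over 4 libraries, followed by SMC1 at 22.0 and Nipped-B at 20.4. SMC3 was at 17.5 TPM, barr at 15.1, glu at 14.1, SMC2 at 13.6, Cap-G at 13.4, SA1 at 12.8 and Cap-D2 at 9.09. barr thus stood above both glu and Cap-G, which it stood below in wild type, while the ranges of neighbours overlapped in emerin too. The thin transcript tables of CS replicates 1 and 2 and yw replicates 1 and 2 enter the wild-type medians, and that of emerin G/PI replicate 1 enters the emerin medians. In chk2, emerin the medians over 3 libraries were 31.0 TPM for Nipped-B, 28.6 for vtd, 28.5 for SMC1, 23.1 for glu, 22.5 for Cap-G and 15.6 for barr.

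**Figure D1:**
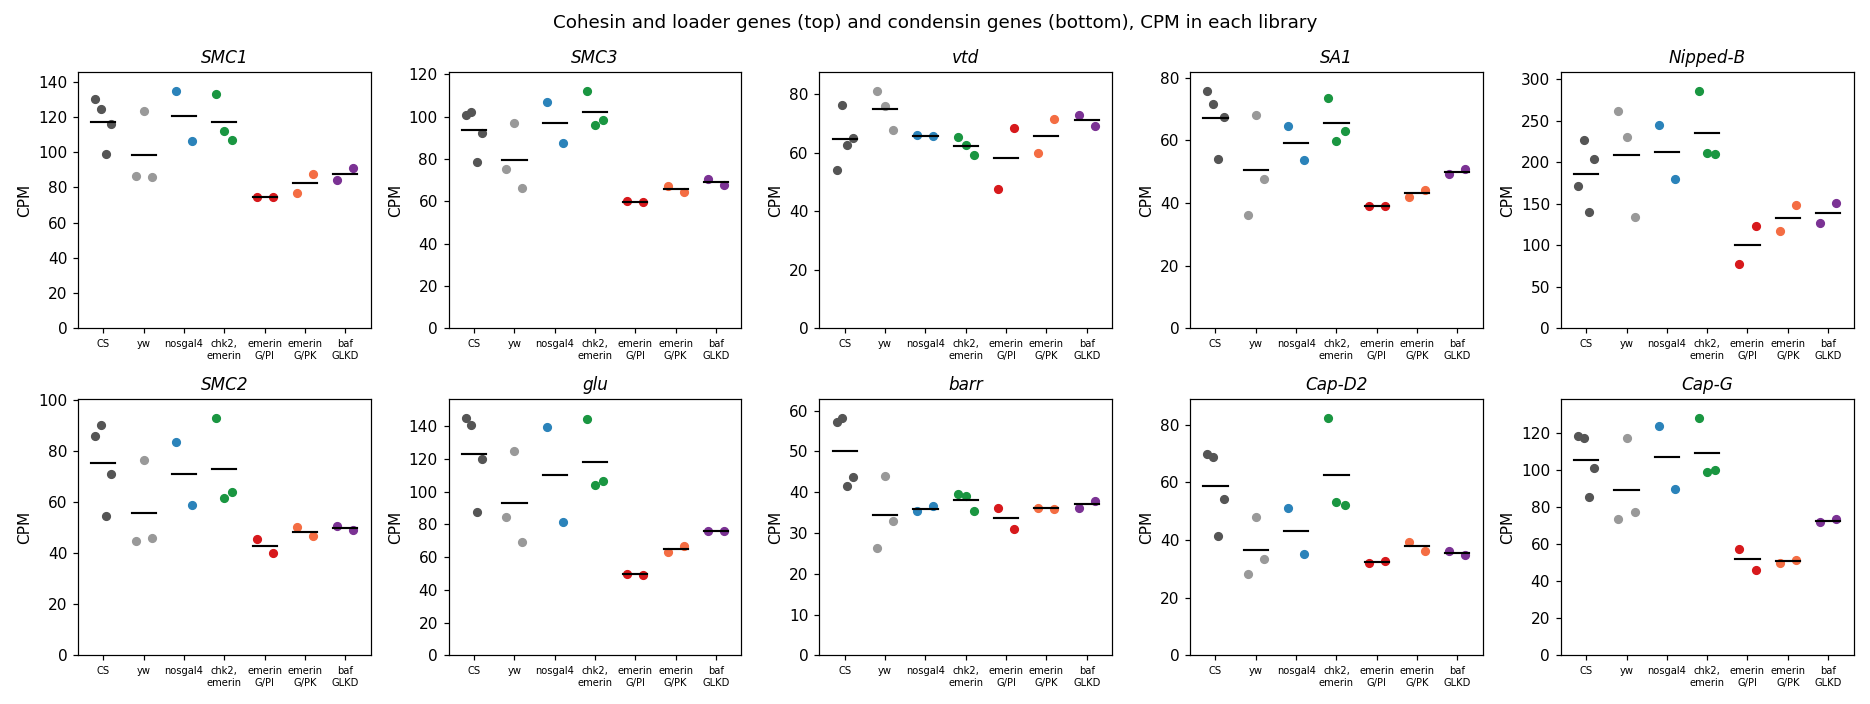
Level of each gene in every library, in CPM on linear axes that start at 0, with 1 point a library and a bar at the mean of each genotype. Cap-G and glu have all 4 emerin libraries below all 7 wild-type libraries, while the emerin libraries of vtd and barr overlap those of wild type.

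Loss of emerin went with lower levels of the genes for both SMC pairs. In emerin against wild type, 7 of the 10 genes were lower, 0 were higher and 3 did not pass the test (edgeR's quasi-likelihood test with Benjamini-Hochberg adjustment over all genes, adjusted p under 0.05). Of all genes tested, 26.6% were lower and 28.3% were higher in this comparison. The median log2 fold change of the 10 genes was -0.52 and that of all genes 0.12. The largest decreases were in the condensin genes glu and Cap-G, and these 2 were the only genes of the 10 whose emerin libraries all lay below every wild-type library, which 17.2% of all genes did.

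Cap-G, a HEAT-repeat subunit that binds the condensin kleisin, was at 57.7 and 46.3 CPM in emerin G/PI and at 50.1 and 51.6 in emerin G/PK. Its wild-type libraries had a lowest level of 73.8, a median of 101 and a highest of 119 CPM. All 4 emerin libraries were below all 7 wild-type libraries, and the log2 fold change was -0.94 (SE 0.16, adjusted p = 9.0e-05, edgeR), a level 48.0% lower.

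The condensin arm glu was at 50.0 and 49.2 CPM in emerin G/PI, at 62.9 and 66.6 in emerin G/PK, and between 69.4 and 145 in wild type, with a median of 120.1. The groups did not overlap, although the lowest wild-type library, yw replicate 3, came within a few CPM of the highest emerin library. The log2 fold change was -0.95 (SE 0.21, adjusted p = 0.0013, edgeR). The other condensin arm, SMC2, fell by 0.55 on the log2 scale (SE 0.20, adjusted p = 0.027, edgeR). Its emerin libraries, at 45.5, 40.1, 50.2 and 46.8 CPM, overlapped the lower wild-type libraries, which ran from 44.7 to 90.3 with a median of 71.2. SMC2 passed in 25 of 33 alternatives, the fewest of the 7 genes. Without CS replicate 2 the adjusted p was 0.052, and in the 11 libraries with full transcript tables it was 0.13.

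The kleisin barr and the subunit Cap-D2 did not pass the test. barr was at 36.2, 31.0, 36.1 and 35.9 CPM in emerin and at 26.3 to 58.2 in wild type, with a log2 fold change of -0.32 (SE 0.17, adjusted p = 0.12, edgeR). Cap-D2 was at 32.1, 32.6, 39.5 and 36.3 CPM in emerin and at 28.3 to 70.0 in wild type, with a log2 fold change of -0.48 (SE 0.23, adjusted p = 0.083, edgeR). For both genes the emerin libraries lay inside the wild-type range, above the lowest yw library. Leaving out that library, yw replicate 1, put both past the threshold, with log2 fold changes of -0.41 for barr (adjusted p = 0.018, edgeR) and -0.58 for Cap-D2 (adjusted p = 0.025, edgeR). Cap-D2 also passed without CS replicate 3 (adjusted p = 0.046, edgeR) and without yw replicate 3 (adjusted p = 0.046, edgeR).

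Among the cohesin genes, the ring arms moved together. SMC1 was at 74.3, 74.4, 77.0 and 87.7 CPM in emerin, and its wild-type libraries ran from 85.7 to 130 with a median of 116. SMC3 was at 60.1, 59.6, 67.3 and 64.3 CPM in emerin and from 66.3 to 102 in wild type, with a median of 92.4. In both genes 1 emerin library reached above the lowest wild-type library, and the log2 fold changes were -0.48 (SE 0.13, adjusted p = 0.0058, edgeR) for SMC1 and -0.48 (SE 0.12, adjusted p = 0.0033, edgeR) for SMC3.

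SA1, which binds the cohesin kleisin, was at 39.1, 39.1, 42.0 and 44.1 CPM in emerin and at 36.1 to 75.8 in wild type, with a log2 fold change of -0.55 (SE 0.17, adjusted p = 0.010, edgeR). Only yw replicate 1 was below the emerin libraries. Nipped-B, the loader, was at 77.4, 123, 117 and 148 CPM in emerin and at 134 to 262 in wild type, and fell by 0.75 on the log2 scale (SE 0.21, adjusted p = 0.0060, edgeR). The highest emerin library of Nipped-B lay above the lowest wild-type libraries, and in the 11 libraries with full transcript tables its log2 fold change was -0.36 (adjusted p = 0.14, edgeR).

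The cohesin kleisin vtd was the exception. It was at 47.7, 68.5, 60.0 and 71.4 CPM in emerin and at 53.9 to 81.1 in wild type, with a median of 67.6. The emerin and wild-type libraries overlapped, with emerin G/PI replicate 1 the lowest of all, and the log2 fold change was -0.16 (SE 0.12, adjusted p = 0.28, edgeR). vtd lies in the heterochromatic base of chromosome arm 3L (27136525 to 27157999 on the plus strand, BDGP6.54 annotation). Nipped-B, which was lower, also lies toward the base of its arm (2R, 4691672 to 4729017 on the minus strand). The part of position in these levels was not tested.

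The count of 7 depended on the reference and on the scale. Against CS alone 9 of the 10 genes were lower, all except vtd, and against yw alone 4 were (SMC3, Nipped-B, glu and Cap-G). Of the 2 references, yw shares the background of the emerin alleles, and it has fewer libraries than CS. In CS against yw the log2 fold change was above 0 for 8 of the 10 genes, with a median of 0.33. The pooled count of 7 thus rests in part on CS. With emerin G/PI alone 6 were lower, and with emerin G/PK alone 3 were (SMC3, glu and Cap-G). In the 11 libraries with full transcript tables, a choice made after seeing the data, 5 were lower (SMC1, SMC3, SA1, glu and Cap-G). On the deposited TPM scale, with limma on log2(TPM + 1) and also chosen after seeing the data, Cap-G alone passed (log2 fold change -0.54, limma adjusted p = 0.037).

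Markers of other tissues moved in the same comparison. Of the germline markers 9 of 11 were lower in emerin, bgcn was higher and tud did not pass. Of the muscle markers 9 of 10 were higher and 0 lower, with a summed level of 28060 to 33041 CPM in emerin against 3483 to 7567 in wild type. Of the fat body markers 10 of 11 were higher and 0 lower (2351 to 3668 CPM in emerin against 262 to 1661), and of the hemocyte markers 8 of 8 were higher (962 to 1714 CPM against 45.2 to 255). Of the somatic ovary markers 5 of 10 were higher and 2 lower, with sums of 948 to 1396 CPM in emerin against 377 to 857 in wild type. Of these lists only en and He were at 0 anywhere, each in 1 library. The part of these tissues in the levels of the cohesin and condensin genes was not tested.

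Relative to the summed germline markers, the 10 genes stood higher in most emerin libraries than in wild type. Their summed level was 520, 564, 602 and 653 CPM in the emerin libraries, against 660 to 1077 in wild type. Divided by the germline sum of the same library, it was 0.258, 0.572, 0.728 and 0.791 in emerin and 0.135 to 0.274 in wild type. Only emerin G/PI replicate 1, the emerin library with the most germline marker RNA, lay in the wild-type range of this ratio. The germline sum, with means of 4532 CPM in wild type and 1164 in emerin, rests largely on osk and orb. Mean osk was 1688 CPM in wild type and 302 in emerin, and mean orb 935 and 105. Mean tud was 356 and 361 CPM. Any gene that fell less than this sum would also stand higher. The ratio was not computed for other genes, so it does not set the 10 genes apart.

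**Figure D2:**
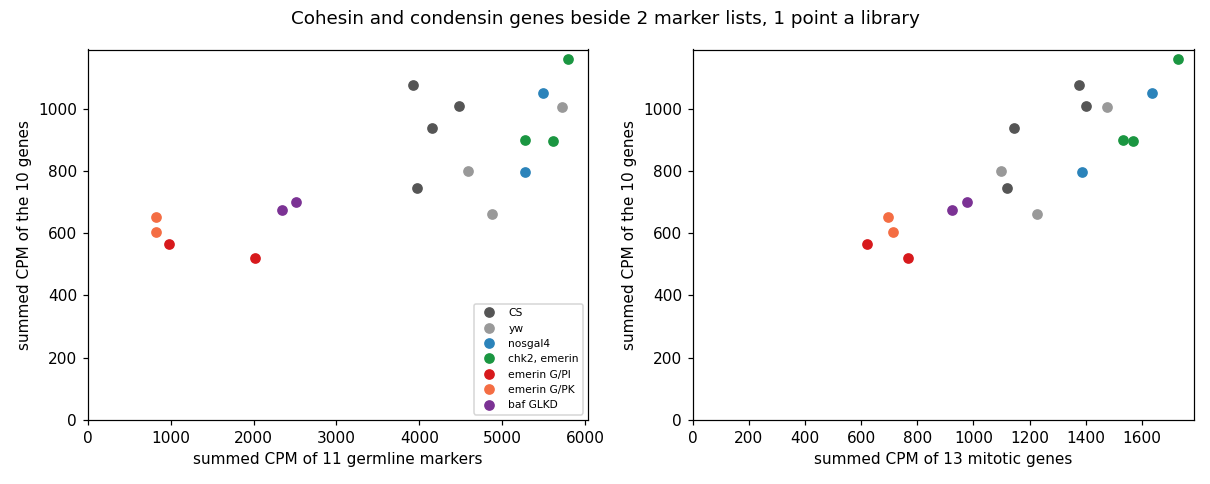
Summed CPM of the 10 genes (vertical axis) against the summed CPM of 11 germline markers (left) and of 13 mitotic genes (right), with 1 point a library and linear axes from 0. The emerin libraries have germline sums of 825 to 2017 CPM and sums over the 10 genes of 520 to 653 CPM, below the wild-type libraries on both axes.

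The double mutant carried emerin G/PK with Chk2 also absent. In chk2, emerin against wild type, 0 of the 10 genes were lower and 0 were higher by edgeR, DESeq2 called 0 in either direction, and 0 had an unadjusted p under 0.05. Of all genes, 4.76% were lower and 2.82% were higher. The log2 fold changes of the 10 genes ran from -0.19 for barr to 0.35 for Cap-D2, with a median of 0.12, against -0.07 for all genes. The libraries of chk2, emerin overlapped those of wild type for all 10 genes, but the share of all genes with such overlap was not computed. With yw alone as the reference 1 gene passed, Cap-D2, which was then higher (log2 fold change 0.78, adjusted p = 0.040, edgeR).

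In emerin against chk2, emerin, 8 of the 10 genes were lower and 0 higher, where 22.7% of all genes were lower and 26.4% higher. The emerin group again held 2 G/PI and 2 G/PK libraries, of which only the latter have the emerin alleles of the double mutant, and this comparison shares its emerin libraries with the one against wild type. The median log2 fold change was -0.69 for the 10 genes and 0.25 for all genes. For each of the 8 genes every emerin library lay below every chk2, emerin library, which held for 27.2% of all genes. Marker sums differed here too. Besides the lower germline sums, muscle markers summed to 4472 to 5659 CPM in chk2, emerin, fat body markers to 727 to 1453, hemocyte markers to 97.8 to 141 and somatic ovary markers to 541 to 923, each below every emerin library. Their part in the levels of the 10 genes was not tested.

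Cap-G was at 128, 99.4 and 100.1 CPM in chk2, emerin, well above its emerin libraries, and the difference was the largest of the 10 (log2 fold change -1.09, SE 0.18, adjusted p = 0.00012, edgeR). glu was at 144, 104 and 106 CPM in chk2, emerin (log2 fold change -1.05, SE 0.25, adjusted p = 0.0022, edgeR). Nipped-B was at 286, 211 and 209.7 CPM in chk2, emerin (log2 fold change -1.02, SE 0.24, adjusted p = 0.0026, edgeR). For all 3 genes replicate 1 was the highest of the chk2, emerin libraries, and all 3 of these libraries lay above the 4 of emerin.

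Cap-D2, which had not passed against wild type, was at 82.3, 53.2 and 52.1 CPM in chk2, emerin (log2 fold change -0.83, SE 0.27, adjusted p = 0.019, edgeR). SMC3 was at 112, 95.9 and 98.3 CPM (log2 fold change -0.70, SE 0.14, adjusted p = 0.00075, edgeR). SMC1 was at 133, 112 and 107 CPM in chk2, emerin, SA1 at 73.6, 59.8 and 63.0, and SMC2 at 93.0, 61.7 and 64.1. All of these lay above the emerin libraries of the same gene. SMC1, SA1 and SMC2 had log2 fold changes of -0.58, -0.67 and -0.68, with edgeR adjusted p of 0.0060, 0.0095 and 0.026. Replicate 1 of chk2, emerin was the highest of its group for these 5 genes. Without this library Cap-D2 (adjusted p = 0.12, edgeR) and SMC2 (adjusted p = 0.16, edgeR) no longer passed.

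Both kleisins stood apart again. vtd was at 65.3, 62.6 and 59.1 CPM in chk2, emerin, inside its emerin range, with a log2 fold change of -0.01 (SE 0.15, adjusted p = 0.96, edgeR). barr was at 39.7, 39.1 and 35.4 CPM in chk2, emerin, overlapping its emerin libraries, with a log2 fold change of -0.13 (SE 0.21, adjusted p = 0.62, edgeR). barr (chromosome 2L, 20058163 to 20061370, minus strand) and lok (chromosome 2L, 20061422 to 20064381, plus strand) lie head to head with 51 bases between them, and the chk2 alleles of the double mutant are in lok. An effect of these alleles on barr itself cannot be told apart from that of Chk2 loss. With scaling by library size alone, which moved the median of all genes from 0.25 to 0.39, 4 of the 8 genes passed (SMC3, Nipped-B, glu and Cap-G), and vtd and barr took log2 fold changes of 0.14 and 0.02. On log2(TPM + 1) 2 passed (Nipped-B and Cap-G), and with emerin G/PK alone 5 did (SMC1, SMC3, Nipped-B, glu and Cap-G), while in the 11 libraries with full transcript tables all 8 passed.

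**Figure D3:**
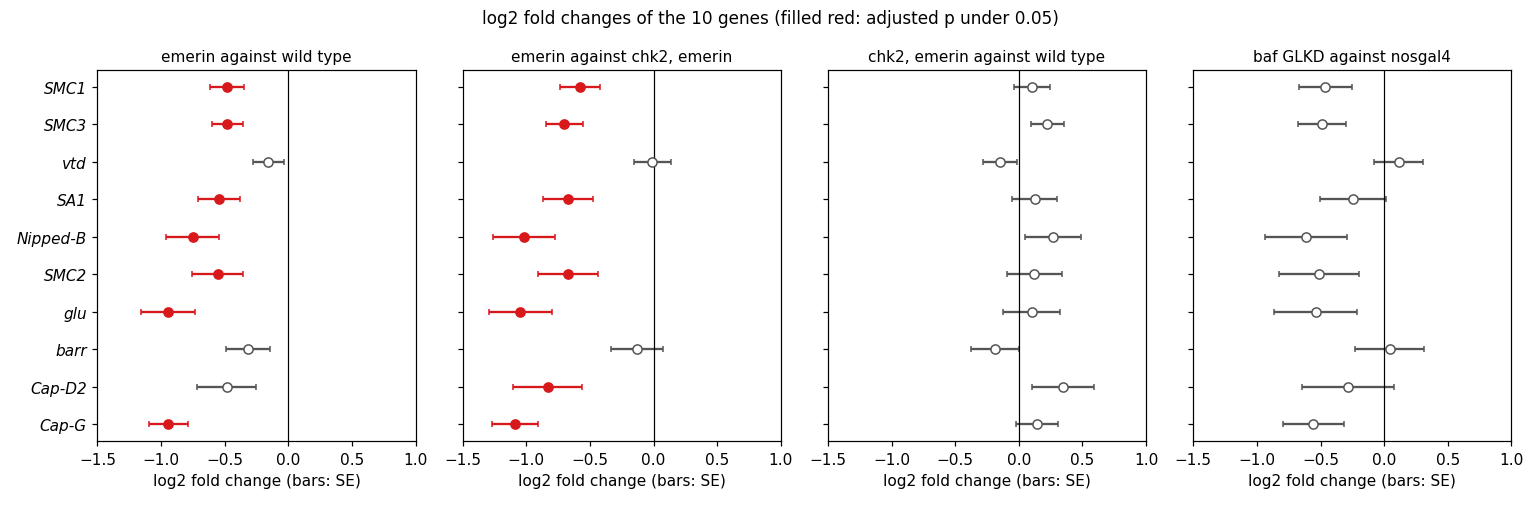
log2 fold change of each gene in 4 comparisons, with bars of 1 SE and filled red points where the edgeR adjusted p was under 0.05. Of the 10 genes 7 are filled in emerin against wild type, 8 in emerin against chk2, emerin and 0 in the other panels.

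With BAF depleted in the germline alone, no gene of the 10 passed the test. In baf GLKD against nosgal4, 0 of the 10 genes were lower and 0 higher by edgeR and by DESeq2, where 8.28% of all genes were lower and 13.3% higher, and 3 of the 10 were lower at an unadjusted p under 0.05 (SMC1, SMC3 and Cap-G). The median log2 fold change was -0.48 for the 10 genes and 0.11 for all genes, and 8 of the 10 values were below 0. Both baf GLKD libraries lay below both nosgal4 libraries for 7 of the 10 genes, which 30.7% of all genes did. Both groups were small, and a miss of the threshold does not show that a gene was unchanged.

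Cap-G was at 72.0 and 73.6 CPM in baf GLKD and at 124 and 90.0 in nosgal4 (log2 fold change -0.56, SE 0.24, adjusted p = 0.11, edgeR). SMC3 was at 70.6 and 68.0 CPM in baf GLKD and at 107 and 87.7 in nosgal4 (log2 fold change -0.49, SE 0.19, adjusted p = 0.077, edgeR). SMC1 was at 84.1 and 90.9 CPM in baf GLKD and at 135 and 107 in nosgal4 (log2 fold change -0.46, SE 0.21, adjusted p = 0.12, edgeR). For all 3 genes the knockdown libraries lay closer together than the nosgal4 libraries, of which replicate 1 was the higher.

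Nipped-B was at 127 and 151 CPM in baf GLKD and at 245 and 180.5 in nosgal4. The arms of condensin had the same order of groups, with glu at 75.8 and 76.2 CPM against 139 and 81.2, and SMC2 at 50.6 and 49.3 against 83.5 and 59.0. SA1 was at 49.2 and 50.8 CPM against 64.5 and 53.8, and Cap-D2, whose groups overlapped, at 36.1 and 34.8 against 51.2 and 35.2. Nipped-B, glu and SMC2 had log2 fold changes of -0.62, -0.54 and -0.51, with edgeR adjusted p of 0.19, 0.25 and 0.25, and SA1 and Cap-D2 had -0.24 and -0.29, with edgeR adjusted p of 0.52 and 0.60. barr was at 36.2 and 37.9 CPM in baf GLKD and at 35.3 and 36.6 in nosgal4, and vtd at 73.0 and 69.2 against 65.9 and 65.6. These kleisin genes were the ones of the 10 with log2 fold changes above 0, at 0.04 for barr (adjusted p = 0.93, edgeR) and 0.11 for vtd (adjusted p = 0.70, edgeR). The germline marker sum differed here too (given above), and muscle, fat body and hemocyte sums were higher in baf GLKD, with 14597 and 17124 CPM of muscle markers against 2971 and 4187. Their part in the levels of the 10 genes was not tested.

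The change in emerin and the change in baf GLKD were also set against each other, in a test added after seeing the data. The change differed for 0 of the 10 genes, by edgeR adjusted p (0.80 to 0.9999) and by unadjusted p under 0.05, while 0.047% of all genes passed. For Cap-G the emerin change was lower than the baf GLKD change by a log2 value of -0.39 (SE 0.28), and for SMC1 by -0.02 (SE 0.24). A p that misses the threshold does not show that the changes were equal.

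The differences inside the reference and mutant groups were tested in the same fit. Between emerin G/PI and emerin G/PK 0 of the 10 genes passed by edgeR and 0 had an unadjusted p under 0.05, with 0.697% of all genes called, and log2 fold changes ran from -0.41 for Nipped-B to 0.03 for Cap-G. Between CS and yw 1 gene passed, barr, where 12.4% of all genes were called. barr was at 57.2, 58.2, 41.6 and 43.7 CPM in CS and at 26.3, 43.9 and 32.8 in yw (log2 fold change 0.55, SE 0.16, adjusted p = 0.042, edgeR), and yw replicate 2 overlapped the CS libraries. The count of 1 became 0 in most fits that left out a library, stayed at 1 without emerin G/PI replicate 1 or chk2, emerin replicate 1, and was 2 without CS replicate 3 and 4 without yw replicate 2. Marker sums also separated these strains without overlap. Hemocyte markers summed to 119 to 255 CPM in CS against 45.2 to 65.8 in yw, muscle markers to 5903 to 7567 against 3483 to 4412, and germline markers to 3930 to 4475 against 4587 to 5722. Their part was not tested.

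Ratios of 2 subunits within a library do not depend on how libraries are scaled to one another. The size of such a ratio also reflects gene length, so only its differences between libraries are read here, as descriptions without a test. In emerin against wild type, 5 of 10 condensin pairs and 0 of 6 cohesin pairs did not overlap. In emerin against chk2, emerin these counts were 6 of 10 and 3 of 6. Each of the 5 condensin pairs against wild type held glu or Cap-G, and each of the 3 cohesin pairs held vtd. These counts thus restate in part the results for single genes given above. The share among other gene pairs was not computed. Cap-G over barr was 1.59, 1.49, 1.39 and 1.43 in the emerin libraries, and had a lowest value of 2.02, a median of 2.32 and a highest of 2.80 in wild type. All emerin libraries lay below all wild-type libraries. The ratio was 3.23, 2.54 and 2.83 in chk2, emerin, 3.52 and 2.46 in nosgal4 and 1.99 and 1.94 in baf GLKD, so baf GLKD stood between emerin and the rest.

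The arms of condensin also shifted against each other. glu over SMC2 was 1.10, 1.22, 1.25 and 1.42 in emerin and 1.51 to 1.89 in wild type, with no overlap, and 1.55, 1.69 and 1.66 in chk2, emerin. It was 1.50 and 1.55 in baf GLKD, within the span of nosgal4, at 1.67 and 1.38. glu over Cap-G, the pair that fell most, was 0.867 to 1.29 in emerin and 0.894 to 1.22 in wild type, with overlap.

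In cohesin the ratio of the arms overlapped between emerin and wild type. SMC1 over SMC3 was 1.14 to 1.36 in emerin, 1.15 to 1.29 in wild type and 1.09 to 1.18 in chk2, emerin. SMC1 over vtd was 1.56, 1.09, 1.28 and 1.23 in emerin and 1.79 to 2.03 in chk2, emerin, without overlap. In wild type this ratio ran from 1.06 to 2.41, with yw replicate 3 among the emerin libraries and yw replicate 1 below all of them.

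**Figure D4:**
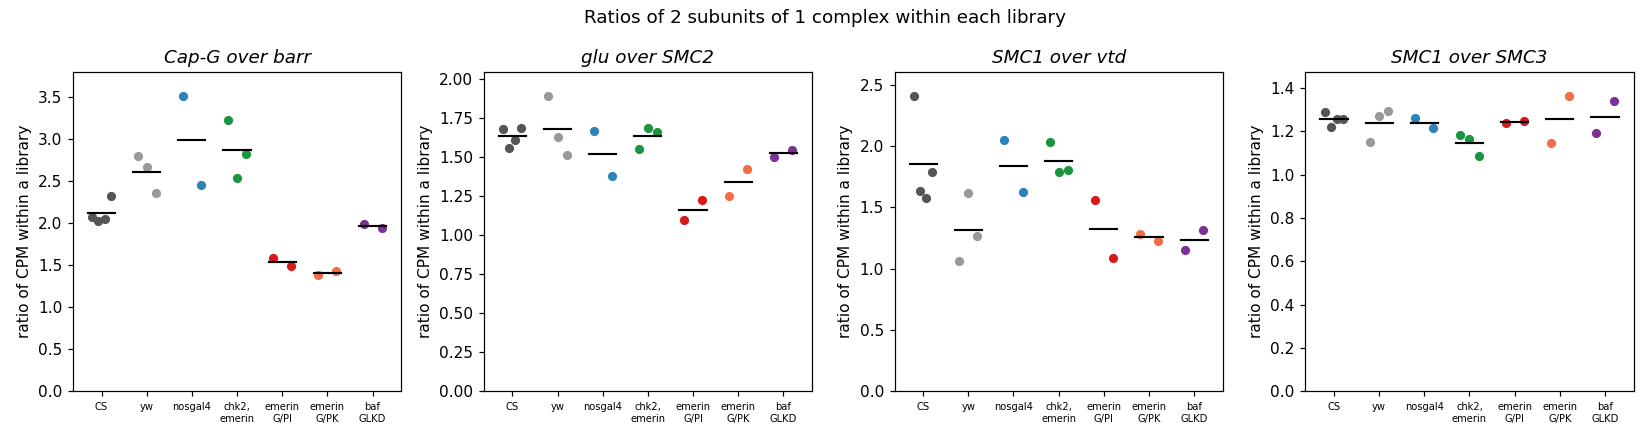
Ratio of the CPM of 2 subunits within each library, on linear axes from 0, with 1 point a library and a bar at the mean of each genotype. Cap-G over barr is at most 1.59 in emerin and at least 2.02 in wild type, while SMC1 over SMC3 overlaps between emerin and wild type.

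Across the 18 libraries the log2 CPM of the genes were mostly correlated, apart from those of vtd. The 45 pairs had a median Pearson r of 0.787, from -0.182 for vtd with barr to 0.966 for SMC1 with glu. SMC1 with SMC3 had r of 0.963, and glu with Cap-G 0.948. vtd had its highest r, 0.496, with Nipped-B, and barr its highest, 0.767, with SA1. The points share libraries, scaling and the genotype differences given above, and no test was made.

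Other genes that act on these complexes were lower in emerin as well. These pathway lists, like the 10 genes, were put together with results of these data known, and their counts are descriptions, read against the 26.6% of all genes that were lower. Of 7 genes for cohesin loading, release and acetylation 6 were lower and 0 higher in emerin, with a median log2 fold change of -0.48. The acetyltransferase san (-1.04, SE 0.16) and dmt, a protector of cohesin (-0.75, SE 0.13), were lowest, and Mau2, the partner of Nipped-B, had -0.38 (SE 0.10). HDAC3, a histone deacetylase, had -0.42 (SE 0.11), but all 1660 bases of its exons are shared with CG45100 on the same strand, so its count is uncertain. All 3 genes for cohesin cleavage were lower, Sse (separase, -0.93), pim (securin, -0.77) and thr (a partner of separase, -0.63), with edgeR adjusted p of 0.00030, 0.020 and 0.032. thr was called in 22 of 33 alternatives, and the losses included those without CS replicate 2 (adjusted p = 0.058, edgeR), without emerin G/PI replicate 1 (0.055) and without emerin G/PI replicate 2 (0.059).

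The meiotic list split in direction. Of its 6 genes 3 were lower and 1 higher in emerin, with a median log2 fold change of -0.38. c(2)M, a kleisin-like protein of the synaptonemal complex, fell by 2.55 on the log2 scale (SE 0.33), solo, which acts in meiotic cohesion, by 2.09 (SE 0.30), and mei-S332, the shugoshin that guards centromeric cohesin, by 0.66 (SE 0.14). ord, needed for meiotic cohesion, rose by 1.78 (SE 0.29). ord was at 5.3, 7.1, 14.8 and 15.9 CPM in emerin and at 2.4 to 5.0 in wild type, with no overlap. solo shares 563 of its 3337 exon bases with the germline marker vas on the same strand, so its count is uncertain.

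In baf GLKD 0 of the 6 meiotic genes passed by edgeR. Values against nosgal4 were -1.07 for c(2)M, -0.81 for solo and 0.71 for ord on the log2 scale. In chk2, emerin against wild type they were -0.17, 0.03 and 0.11, and 0 of 6 passed.

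Both subunits particular to condensin II were lower in emerin. The kleisin Cap-H2 had a log2 fold change of -1.65 (SE 0.21, adjusted p = 7.2e-06, edgeR) and Cap-D3 of -0.71 (SE 0.18, adjusted p = 0.0028, edgeR). Cap-H2 was at 58.2, 29.8, 31.4 and 34.9 CPM in emerin and at 91.3 to 179 in wild type, with no overlap. Parts of the exons of Cap-H2 and Cap-D3 are shared with genes on the opposite strand. In baf GLKD Cap-D3 passed as lower (log2 fold change -1.07, adjusted p = 0.013, edgeR), where 8.28% of all genes were lower. Cap-H2 did not pass there (log2 fold change -0.74, adjusted p = 0.097, edgeR). In chk2, emerin against wild type 0 passed by edgeR, with log2 fold changes of -0.24 for Cap-H2 and -0.12 for Cap-D3.

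The third SMC complex, Smc5/6, which acts in DNA repair, had 5 of 7 genes lower and 0 higher in emerin, with a median log2 fold change of -0.69. Nse1 (-1.15, SE 0.17) and the arm SMC5 (-1.09, SE 0.13) were lowest, and cerv and the arm SMC6 had -0.69 and -0.45, with edgeR adjusted p of 0.0084 and 0.0073. Of 13 mitotic genes for chromosome passengers, kinases and the checkpoint 12 were lower and 0 higher, with a median log2 fold change of -0.78. The centromeric histone cid had -1.21 (SE 0.22) and the topoisomerase Top2, which works beside condensin on mitotic chromosomes, -1.06 (SE 0.16), while borr and Bub1 had -0.50 and -0.32, with edgeR adjusted p of 0.00084 and 0.029. Bub1 was called in 23 of 33 alternatives, and the losses included those without yw replicate 2 (adjusted p = 0.056, edgeR), with DESeq2 (adjusted p = 0.065) and with RLE scaling (adjusted p = 0.076, edgeR).

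Set against the mitotic sum of the same library, the 10 genes stood higher in most emerin libraries than in wild type. Their sum was 0.680, 0.907, 0.846 and 0.937 times the mitotic sum in emerin and 0.538 to 0.817 times in wild type. It was 0.570 to 0.670 times in chk2, emerin. Of the emerin libraries only G/PI replicate 1, at 0.680, lay in the wild-type range. The mitotic sum, with means of 1264 CPM in wild type and 699 in emerin, rests largely on Top2, with means of 597 and 286. Any gene that fell less than this sum would also stand higher. The ratio was not computed without Top2 or for other genes, so it does not set the 10 genes apart. In chk2, emerin against wild type 1 of the 13 mitotic genes passed, Top2, which was higher (log2 fold change 0.64, SE 0.16, adjusted p = 0.028, edgeR), and in baf GLKD 1 of the 13 was lower.

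Exons of 3 of the 10 genes overlap a gene on the opposite strand, SA1 by 194 bases with CG13775, Cap-D2 by 17 bases with CG7582 and glu by 8 bases with Nubp1. Whether strand was used in the estimates is not stated, so reads in these stretches may belong to either gene.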

How the data were processed

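Per the study's methods, the authors trimmed paired reads with Trim Galore (version 0.6.6 in the submitters' notes) and estimated transcript counts with kallisto 0.46.1 on the BDGP6.32 transcriptome, then used tximeta to obtain gene values. Estimated counts in the deposited gene table (14237 genes) are whole numbers with no scaling for depth. For each of 30944 transcripts the authors also gave TPM, an effective length and an estimated count, and 133 transcripts matched no gene. The BDGP6.54 annotation supplied symbols (14194 genes) and coordinates. A gene needed at least 10 counts in total across the 18 libraries to be tested, which 1475 did not reach. Counts were scaled with TMM and fitted with edgeR 4.0.16 (quasi-likelihood; limma 3.58.1, R 4.3.3) over all libraries together, CS and yw forming wild type. p-values were Benjamini-Hochberg adjusted over 12762 genes, with a threshold of 0.05. TPM was summed to genes, and log2(TPM + 1) was tested as an alternative. The libraries are independent RNA isolates per the study's methods, and no library duplicated another of the same genotype (chi-square over its degrees of freedom was 16.4 to 204). Libraries of different genotypes were not compared in this way. The procedure was tested on simulated data. Alternatives were DESeq2 1.42.0, RLE, library size only, other filters, blocks, removal of the length trend (lowess, span 0.3), other references and each library left out.

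The 10 genes and the lists were chosen with earlier results of these data known. Every one of the 10 is named, and of each pathway list the 2 lowest and 2 highest log2 fold changes among genes called in emerin against wild type. Of the germline list, 1 gene was not matched. In the meiotic list, a symbol and its synonym were counted once. Figures were drawn with matplotlib 3.10.9.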

Additional observations from a re-analysis of the deposited data

Results flagged for a closer look

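Each of the 10 genes was looked at in CS, in wild type and in emerin for a library far from the others, 30 groups in all, of which chance flags about 1 in 20. In 1 group a library stood apart. It was barr in emerin, at 31.0 CPM in emerin G/PI replicate 2 against 35.9 to 36.2 CPM in the other 3 emerin libraries.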

How the results depend on the processing

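For the 10 genes in the 4 main comparisons, 1240 alternative values were computed, of which 1161 kept their direction and their side of the threshold, 37 lost the call, 12 gained one and 30 changed sign, none of these with a call on either side. Cap-G was lower in emerin than in wild type under all 33 alternatives. Some alternatives left out a library of a genotype outside the comparison. Those fits change a value only through the shared scaling and spread, so they add little to these counts. The cause of the changes below was not tested.

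The number of genes lower in emerin against wild type (7) was 4 with yw only, 3 with emerin G/PK only and 1 on log2(TPM + 1), and 6 to 9 with 1 library left out (6 without CS replicate 2, 9 without yw replicate 1). In emerin against chk2, emerin (8) it was 4 with library size only, 5 with emerin G/PK only and 2 on log2(TPM + 1), and 6 to 8 with 1 library left out (6 without chk2, emerin replicate 1). In baf GLKD (0) it was 2 with the length trend removed, SMC1 and SMC3, and 0 to 1 with 1 library left out (SMC3 without yw replicate 3). In chk2, emerin against wild type 1 gene was higher with yw only. Between CS and yw (1 called) the count was 2 with DESeq2, library size only or the library set as a block, 0 with only the groups compared, and 0 to 4 with 1 library left out.

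vtd in emerin against chk2, emerin turned to log2 values of 0.033 with DESeq2, 0.034 with RLE, 0.14 with library size only, 0.082 with the length trend removed, 0.075 with emerin G/PK only, 0.047 in the 11 full libraries and 0.13 on log2(TPM + 1), and ran from -0.13 to 0.046 with 1 library left out. barr in the same comparison turned to 0.018 with library size only. In chk2, emerin against wild type the length trend removed gave -0.13 for SMC1, -0.021 for SMC3, -0.073 for SA1, -0.28 for Nipped-B, -0.088 for SMC2, -0.19 for glu and -0.13 for Cap-G, and CS only gave -0.0027 for SMC1, -0.036 for SA1, -0.050 for SMC2 and -0.061 for glu. With 1 library left out SMC2 ran from -0.092 to 0.23 and glu from -0.067 to 0.18, lowest without chk2, emerin replicate 1. With yw only barr was 0.019 in emerin and 0.15 in chk2, emerin against wild type. In baf GLKD with 1 library left out, Cap-D2 ran from -0.53 to 0.0094, above 0 without nosgal4 replicate 1, and barr from -0.015 to 0.070, below 0 without baf GLKD replicate 2. On log2(TPM + 1), vtd was 0.22 in emerin and 0.090 in chk2, emerin, barr 0.023 in chk2, emerin and Bub1 0.083 in emerin, all against wild type.

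Replicate numbers shared by libraries do not mark a shared origin in the labels. Same-numbered libraries of different groups deviated with a median r of 0.071, from -0.474 to 0.471. With a replicate block 8 genes were lower in emerin against wild type (Cap-D2 was added) and 8 in emerin against chk2, emerin, and the other counts of these genes were 0 or 1 as without it.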
